A study of Homo sapiens with 3 samples.

Results

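DEAD and DEAH box RNA helicases were followed in OCI-AML2 R50 cells with and without romidepsin. The members were all gene symbols made of DDX and a number, with or without a closing letter, or of DHX and a number. The rule found 55 symbols, 39 of them DDX and 16 DHX, among the 25247 named symbols. OCI-AML2 is an established acute myeloid leukaemia (AML) cell line, and the R50 culture was kept in 50 µM Ara-C (cytarabine, a nucleoside analogue used against AML) with 15% serum, in the control as well as in the treated libraries. The 2 treated libraries came from cells exposed for 18 h to romidepsin, a cyclic peptide that inhibits class I histone deacetylases, and 1 library was the untreated control. No source used here gives the romidepsin dose, the meaning of R50 or whether the treated libraries stem from separate cultures. The p-values below therefore rest on a spread that may be no more than technical. In bulk RNA, fewer cells of a kind and less RNA per cell cannot be told apart.

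DEAD and DEAH box proteins use ATP to open short RNA duplexes or to strip proteins from RNA, and they are named after the amino acids of a conserved motif that binds ATP. DEAD box members act locally, pushing strands apart without travelling far, while many DEAH box members pull on a single strand from a distance. Together they serve almost every step in the life of an RNA: they remodel ribosome precursors in the nucleolus, drive the steps of the spliceosome, release mRNA at the nuclear pore, unwind leaders during translation and sense viral RNA. Proliferating leukaemia cells make many ribosomes and so use the nucleolar members heavily.

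Values are FPKM, fragments scaled to gene length and library size, so levels of different genes can be compared within a library. Differences are given as log2(FPKM + 1) in romidepsin minus control, and folds as ratios of FPKM. Symbols that reached 1 FPKM in any library were tested. The limma test was fitted over all 11708 such genes, and a gene that passed an adjusted p of 0.05 is said to have risen or fallen. The spread came from the romidepsin pair alone, and the single control library was taken to vary to the same degree. Most genes pass: 41.8% of all tested genes fell and 34.7% rose.

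The summed FPKM of named genes was 613768 for the control, against 520552 and 517923 for the treated libraries. From the steps between low values, depth was roughly 17 M fragments for the control, against 20.8 M and 21.6 M for the treated libraries. Scaling each library to the same sum moved the median of all tested genes from -0.05 to 0.16. All 9 myeloid markers checked passed the filter and summed to 6160 FPKM in the control against 3842 and 3789 FPKM in the treated libraries. Of these, 5 fell and 3 rose. LYZ, at 4258, 2630 and 2596 FPKM, made up most of the sum, and MPO, the granule peroxidase, was at 751, 444 and 433 FPKM. The 3 that rose were PTPRC (71.3, 96.7 and 95.9 FPKM), CEBPA (223, 265 and 262 FPKM) and ANPEP (0.654, 5.40 and 5.24 FPKM). With same-sum scaling 4 of the 9 were lower and 4 higher, where 26.2% and 48.7% of all genes were. Of 11 markers of other cell types, 5 were at 0 in every library, among them MS4A1 of B cells and EPCAM of epithelia, and all 3 that could be tested rose. The list summed to 8.78 FPKM without romidepsin and 19.8 and 19.6 FPKM with it, most of it PECAM1, which myeloid cells also carry. The part of these marker shifts in the results was not tested.

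Of the 55 symbols, 50 were tested, all of them at or above 1 FPKM in the control, so none entered only through the treated libraries. In limma, 36 of the 50 fell and 5 rose, or 72% and 10%, against the 41.8% and 34.7% of all genes. The median difference of the tested members was -0.49, compared with -0.05 over all genes. Among the 49 tested members whose levels are given here, both romidepsin libraries lay below the control for 38 and above it for 8, and the control fell between them for DDX19B, DDX3X and DDX26B. The same counts were not made over all genes, so no share stands beside them. The romidepsin libraries were close to each other, the widest gap for any of these members being 1.18-fold (DHX35). Only DDX21 and DDX54 were at least 2-fold lower in both libraries on the log2(FPKM + 1) scale, where 3.08% of all genes were, and no member was at least 2-fold higher, where 7.43% of all genes were. That count of 2 was 5 with a pseudocount of 0.1, where 4.64% of all genes were 2-fold lower. It was 0 with same-sum scaling (1.47% of all genes) and 1 under quantile normalization (3.10%). The genes tested include some that reached 1 FPKM only after romidepsin. With a mean of at least 5 FPKM, 463 of 8625 genes were 2-fold higher and 309 2-fold lower, against 0 and 2 of 45 members. At that filter 49.1% of genes fell and 31.4% rose (median -0.12), against 35 and 4 of the members (median -0.51). DDX3Y was counted among the genes that fell, and its levels are not given; it is a near copy of DDX3X and the pair may share reads.

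The split depends on the scaling. After scaling all libraries to the same sum, 28 members were lower and 11 higher, against 26.2% and 48.7% of all genes. Under quantile normalization 34 were lower and 5 higher, against 37.7% and 32.8%. With no filter on low values, 19 of 55 were lower and 1 higher, against 8.27% and 8.11% of all 25247 genes. The 28 lower calls under same-sum scaling were among the 36 as deposited, and all 28 also held under quantile normalization. Summed over all members but DDX3Y, the pool was 1793 FPKM in the control against 1277 and 1268 FPKM, 1.41-fold lower as deposited. As a share of the library, which amounts to same-sum scaling, the same genes held 0.292% of the named FPKM in the control and 0.245% in each romidepsin library.

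**Figure D1:**
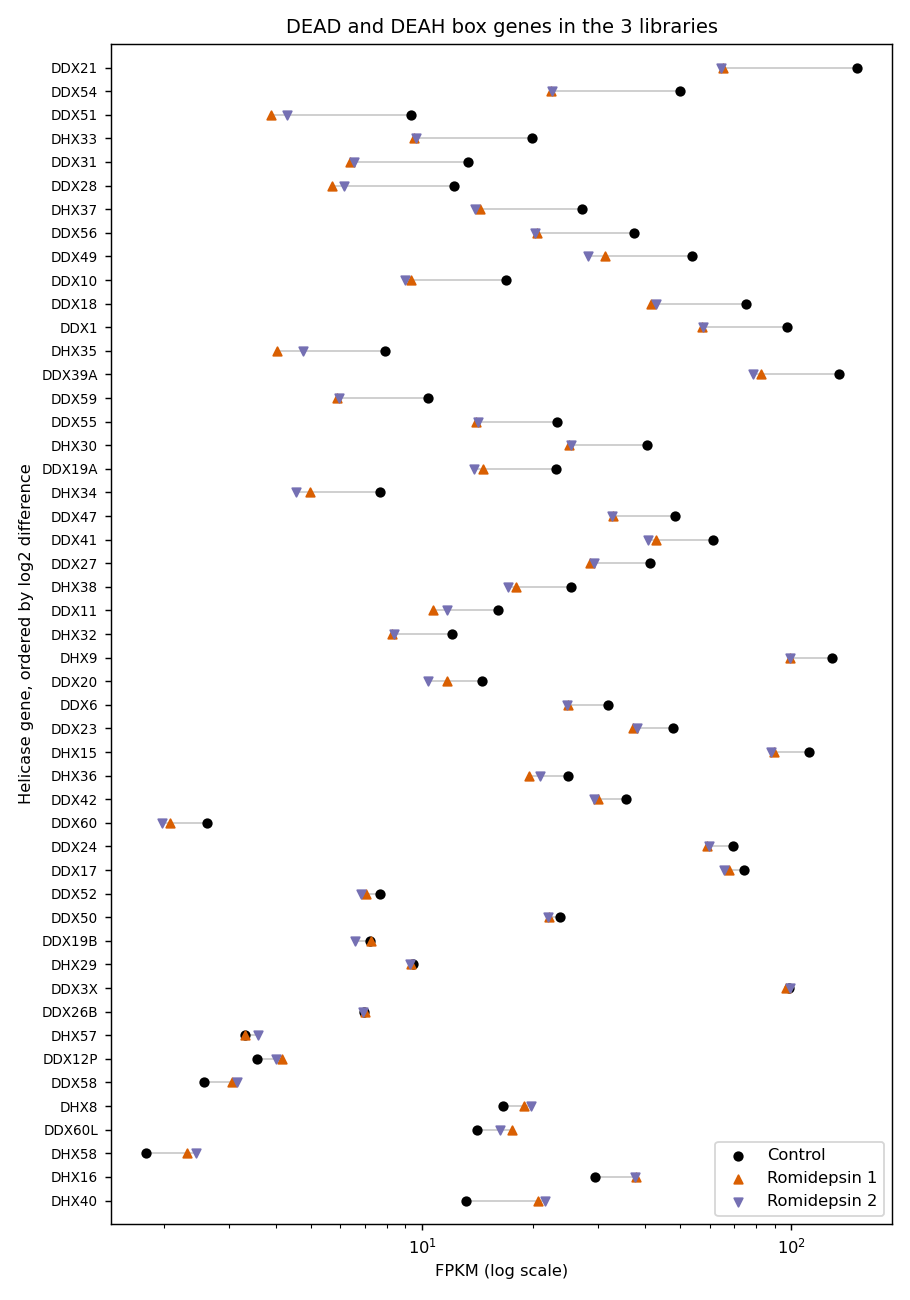
FPKM (horizontal axis, log scale) of 49 tested DEAD and DEAH box genes in the control (circles) and the romidepsin libraries (triangles), with genes ordered from the largest fall to the largest rise. The romidepsin points sit together, left of the control for 38 genes and right of it for 8. The share of all genes on either side was not counted.

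Short stretches of promoter were read from RefSeq (GRCh38.p14) around chosen sets of letters. They are shown for some of the genes that moved most and for an adjacent pair of viral RNA sensors that went apart. Only matches are shown, so genes without one are not printed. The files carry hg19 names and no coordinates, so genes were matched by name. Of 54 symbols other than DDX3Y, 46 matched directly and 2 by synonym (DDX58 as RIGI, DDX26B as INTS6L). The 6 not matched were DHX33, DDX49, DDX18, DDX52, DDX12P and DHX58. The letters CACGTG, an E-box that reads the same on both strands and is the core bound by MYC with MAX, are in capitals in the first set.

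DDX21: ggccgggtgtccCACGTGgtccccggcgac
DDX54: ctcagcggaggtCACGTGgtcaccgcacct
DDX31: cctcgcgcgtccCACGTGgggtcccgggcc
DHX40: caaggcgaagcgCACGTGgcagttggcggg

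These lie, in order, at chr10:68956604-68956633 on the plus strand, chr12:113185522-113185551 on the minus strand, chr9:132669988-132670017 on the minus strand and chr17:59565448-59565477 on the plus strand, all upstream of a RefSeq start. DDX21, DDX54 and DDX31 were among the genes that fell most, and DHX40 rose most, so the same letters stood upstream of members that moved in opposite directions. An E-box was present in the 300-base window (250 bases before to 50 after a start) of 9 of the 48 matched members, or 18.8%, compared with 8.77% of all 27305 symbols in the table. The others were DHX32, DHX34, DHX35, DHX37 and the untested DDX25. Some large falls lacked it: DDX51, DDX28, DDX56 and DDX10 were matched and had no E-box in the window. DHX33, DDX49 and DDX18, which also fell, were not matched. Of the 8 tested members with an E-box, 7 fell and DHX40 rose, with a median difference of -0.81. Of the 35 without, 25 fell and 3 rose, with a median of -0.35. Over all tested genes in the table, 548 of 1092 with an E-box fell and 317 rose, with a median of -0.16. Among those without, 2992 of 7317 fell and 2586 rose, with a median of -0.04. The 27305 symbols behind the 8.77% include genes not tested here. Among tested genes in the table, 1092 had an E-box and 7317 did not, against 8 and 35 of the tested members matched. Whether the members differ from other genes in this was not tested. A match of letters is a description and not a binding site.

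The second set shows a GAAANNGAAA repeat (in capitals, searched on both strands), the kind of repeat bound by interferon regulatory factors, in the neighbouring genes DDX60 and DDX60L.

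DDX60: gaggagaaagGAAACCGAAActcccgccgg
DDX60L: gtggagaaaaGAAACCGAAActaactccct

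The stretches lie at chr4:168318786-168318815 and chr4:168480523-168480552, both on the minus strand upstream of the start, and each gene has a further copy of the repeat a short way upstream. Only DHX15 also had the repeat among the 48 matched members (6.25% in all, against 4.38% of all symbols). The capitals are identical letter for letter in both genes, while their RNA moved in opposite directions as deposited, as described below. The fall of DDX60 was at the threshold and was not called with same-sum scaling.

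The nucleolar helicases of ribosome biogenesis held the 5 largest falls of the family. Of 16 members with this role all were tested, 14 fell and none rose, and DDX50 and DDX52 were not called. Of all genes, 41.8% fell and 34.7% rose. The median difference was -0.83, against -0.33 for the 34 tested members with other roles, and the difference between roles was not tested. Together the 16 genes summed to 667 FPKM in the control and to 388 and 386 FPKM after romidepsin, 1.72-fold lower, and their share of the helicase pool went from 37.2% to 30.4% in each romidepsin library. When each library had the same sum, 13 were lower and 1 higher (DDX50), against 26.2% and 48.7% of all genes. Under quantile normalization 14 were lower and none higher, against 37.7% and 32.8%.

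DDX21, a nucleolar helicase that works on rRNA transcription and processing, was the most abundant in the control of the members with a row of their own, at 150 FPKM, and it stood at 65.4 and 64.3 FPKM in the romidepsin libraries. Both treated values lay far below the control and close to each other. The fold was 2.32 and the log2 difference -1.20 ± 0.04 (SE; limma adjusted p = 3.36e-07). DDX21 thereby dropped from first to sixth place among these members. The joint rows with DDX39B and DDX5 and the EIF4A genes, outside the name rule, are left out of this order. EIF4A1, EIF4A2 and the DDX39B row were above DDX21 in the control. The DDX5 row, at 132, 139 and 142 FPKM, was above DHX9 in the control and above every member after romidepsin. Among the members the order at the top changed: DDX21, DDX39A, DHX9, DHX15 and DDX3X led in the control, whereas DHX9 and DDX3X led after romidepsin, with values of 98.8 to 99.2 FPKM and 96.8 to 99.1 FPKM that overlap.

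DDX54, which acts on the large ribosomal subunit, went from 49.8 FPKM to 22.3 and 22.4 FPKM, a 2.23-fold fall (log2 difference -1.12 ± 0.04, limma adjusted p = 7.99e-07). DDX51, also of the large subunit, was at 9.31 FPKM without romidepsin and 3.89 and 4.30 FPKM with it, with a fold of 2.27 and a log2 difference of -1.02 ± 0.08. Its treated values straddle the 2-fold line on the log2(FPKM + 1) scale, so it met the 2-fold rule in the first romidepsin library only. DHX33, a DEAH member of rRNA synthesis, fell from 19.9 FPKM to 9.47 and 9.62 FPKM, and DDX31, of the large subunit, from 13.3 FPKM to 6.38 and 6.51 FPKM. For each of these genes the treated libraries were close together and well below the control. DHX37, the DEAH helicase that releases U3 snoRNA from the small subunit precursor, fell from 27.0 FPKM to 14.3 and 13.9 FPKM, next to its activator UTP14A, which fell from 28.6 FPKM to 16.9 FPKM in both libraries.

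Further falls in this role were of 1.65 to 1.85-fold. DDX10 fell from 16.9 FPKM to 9.34 and 8.96 FPKM, DDX18, of large subunit assembly, from 75.2 FPKM to 41.6 and 42.9 FPKM, DDX56 from 37.4 FPKM to 20.4 and 20.2 FPKM, and DDX49 from 53.8 FPKM to 31.3 and 28.1 FPKM. DDX55 went from 23.1 FPKM to 13.9 and 14.2 FPKM. The falls of DDX47 (1.48-fold), DDX27 (1.44-fold) and DDX24 (1.17-fold) were smaller, and that of DDX24, from 69.4 FPKM to 59.1 and 59.7 FPKM, was not called with either other scaling (0.02 with the same sum and -0.01 under quantile normalization). Thus the role held both the steepest falls of the family and members that hardly moved.

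DDX50, the paralogue of DDX21 encoded beside it on chromosome 10, was the contrast. Its level was 23.6 FPKM without romidepsin and 21.98 and 21.8 FPKM with it (log2 difference -0.10, limma adjusted p = 0.0774), and it was called higher with same-sum scaling (0.13). Within a library DDX21 was 6.38 times as abundant as DDX50 in the control and 2.97 and 2.94 times in the romidepsin libraries. This ratio is free of any scaling between libraries and shows that these neighbours changed unequally. DDX52, a small subunit factor, was at 7.68, 7.02 and 6.83 FPKM (adjusted p = 0.101 in limma), and only quantile normalization called it lower (-0.19).

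**Figure D2:**
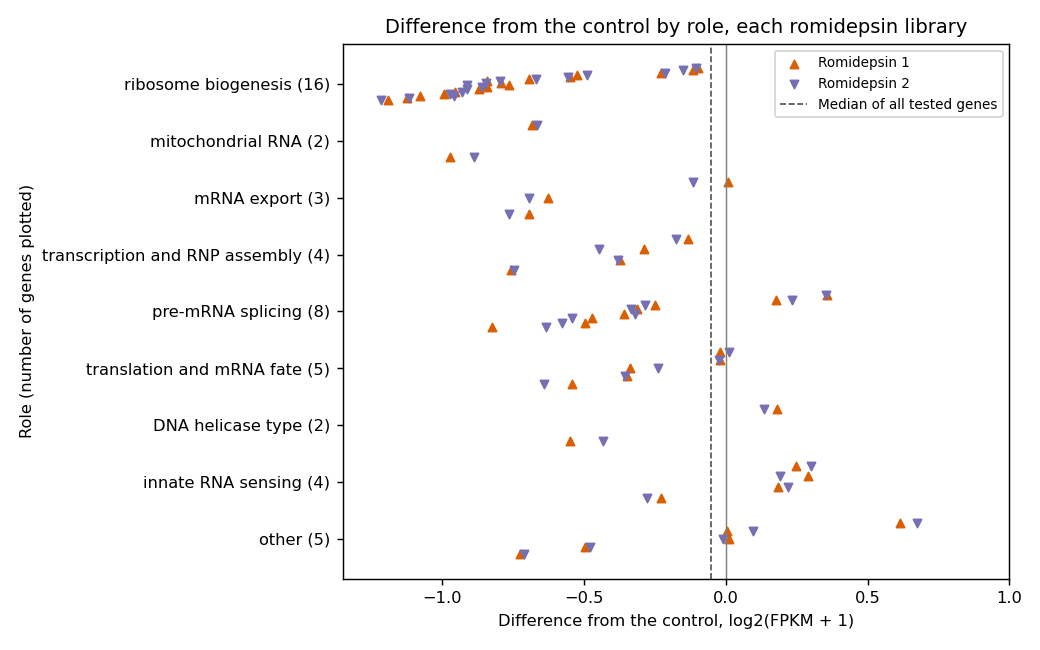
Difference from the control in log2(FPKM + 1) (horizontal axis) of each tested member in each romidepsin library, by role. The dashed line marks the median of all tested genes, -0.05; 16 ribosome biogenesis genes spread from -1.20 to -0.10 in their mean over both libraries, while the innate sensing genes lie on both sides of 0.

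Helicases of mitochondrial RNA fell alongside. DDX28, which helps to build the mitochondrial ribosome, went from 12.2 FPKM to 5.71 and 6.12 FPKM, a 2.06-fold fall. DHX30, its DEAH partner in mitochondrial RNA granules, went from 40.7 FPKM to 24.965 and 25.3 FPKM, 1.62-fold lower. Outside the name rule, SUPV3L1, the helicase of the mitochondrial RNA degradosome, fell from 21.5 FPKM to 9.96 and 10.8 FPKM, the largest fall among 15 tested RNA helicases named otherwise.

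At the nuclear pore and in mRNA packaging, DDX39A, an mRNA export helicase, was second among the members with a row of their own, at 134 FPKM in the control, and fell to 82.6 and 78.5 FPKM (log2 difference -0.73 ± 0.04, limma adjusted p = 4.43e-06). Its paralogue DDX39B, part of the TREX export complex, had a row of its own listed at 0 in all libraries and was read only in a joint row with ATP6V1G2 and their readthrough, at 233, 185 and 187 FPKM. That row fell by 0.32, a call lost with same-sum scaling (-0.08) and quantile normalization (-0.02). The ratio of DDX39A to the joint row was 0.576 in the control and 0.446 and 0.419 after romidepsin. DDX19A and DDX19B, adjacent genes whose products remodel mRNA as it leaves the pore, also parted: DDX19A fell from 23.0 FPKM to 14.6 and 13.8 FPKM, while DDX19B was at 7.22, 7.27 and 6.58 FPKM (adjusted p = 0.538 in limma). DDX19A was 3.19 times DDX19B in the control and 2.003 and 2.104 times after romidepsin. As close paralogues they may share reads, so their separate values are uncertain.

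Partners in export moved broadly the same way: 9 of 11 fell and 1 rose, with a median of -0.55. Of all genes, 41.8% fell and 34.7% rose. THOC6, a subunit of the THO complex, had the largest fall, from 51.8 FPKM to 26.9 and 24.5 FPKM. NXF1, the main export receptor, was the exception and rose from 23.9 FPKM to 36.4 and 37.7 FPKM. With same-sum scaling 8 were lower and 2 higher (26.2% and 48.7% of all genes), and under quantile normalization 8 and 1 (37.7% and 32.8%).

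Splicing helicases moved in both directions. All 8 members with this role were tested, 6 fell and 2 rose, and the median was -0.33. Of all genes, 41.8% fell and 34.7% rose. DHX15, which disassembles the spliceosome and also serves ribosome assembly, was the most abundant of them at 111 FPKM without romidepsin and 89.5 and 88.2 FPKM with it. The 1.25-fold gap exceeds that between the treated libraries, but the call was lost with same-sum scaling (-0.08) and quantile normalization (-0.06). DDX41, mutated in familial AML, fell from 61.2 FPKM to 43.1 and 40.7 FPKM, 1.46-fold, and remained lower under both scalings. DHX35 went from 7.93 FPKM to 4.04 and 4.76 FPKM, the steepest splicing fall at -0.73 ± 0.09. DHX38, which remodels the spliceosome between its catalytic steps, fell 1.44-fold, DDX23, of the U5 particle, 1.27-fold and DDX42, linked to the U2 particle, 1.21-fold. Same-sum scaling left 3 of the 8 lower and 2 higher, with a median of -0.09, against 26.2% and 48.7% of all genes.

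DHX16 and DHX8 were the splicing helicases that rose, where 34.7% of all genes rose and 41.8% fell. DHX16, which acts just before the first catalytic step, was at 29.3 FPKM without romidepsin and 37.9 and 37.7 FPKM with it (log2 difference 0.35 ± 0.04, limma adjusted p = 0.000153). Its symbol stood in 8 rows, 7 of them at 0 in every library, so the sum is that of 1 row. DHX8, which releases spliced mRNA, went from 16.6 FPKM to 18.8 and 19.6 FPKM (0.20 ± 0.05, adjusted p = 0.00818). Set against DHX15 within a library, DHX16 was 0.263 times as abundant in the control and 0.423 and 0.427 times after romidepsin. DDX46, of the U2 particle, was read only in a joint row with C5orf24, at 39.7, 37.6 and 36.7 FPKM, which was not called (adjusted p = 0.0743 in limma). Among 10 activators of DEAH helicases, mostly G-patch proteins, 5 fell and 2 rose with a median of -0.15. With same-sum scaling 1 activator was lower and 5 were higher, against 26.2% and 48.7% of all genes. UTP14A had the largest fall, and SUGP1, an activator of DHX15, had the largest rise (0.40).

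Among helicases of transcription and RNP assembly all 4 tested members fell as deposited, where 41.8% of all genes did. With same-sum scaling 2 of the 4 were lower (median -0.14), against 26.2% of all genes. Under quantile normalization 3 were lower, against 37.7%. DDX1, a subunit of the tRNA ligase complex, had the steepest fall, from 97.5 FPKM to 57.3 and 57.6 FPKM (1.70-fold, limma adjusted p = 2.05e-06). In that complex 4 of 5 partners also fell, FAM98B most (from 24.7 FPKM to 16.1 FPKM in both treated libraries), and 2 of the 5 were lower with same-sum scaling. Of all genes, 41.8% fell as deposited and 26.2% were lower with same-sum scaling. DHX9, which resolves RNA and RNA-DNA duplexes, fell 1.30-fold from 129 FPKM to 99.2 and 98.8 FPKM. DDX20, the helicase of the SMN complex, fell from 14.5 FPKM to 11.7 and 10.3 FPKM, a call lost with same-sum scaling (-0.14). Of the 8 SMN complex partners found, 6 fell and none rose, and GEMIN4 fell most, from 35.6 FPKM to 17.0 and 16.7 FPKM. With same-sum scaling 6 were lower and 1 higher, against 26.2% and 48.7% of all genes.

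DDX17 and DDX5 are paralogous coregulators of transcription. DDX17 fell as deposited, from 74.3 FPKM to 67.6 and 65.8 FPKM, but it was 0.08 and 0.07 higher with same-sum scaling and quantile normalization, called by neither. DDX5 was read only in a joint row with MIR3064 and MIR5047, at 132, 139 and 142 FPKM, and that row rose by 0.09 as deposited and by 0.33 and 0.35 under the other scalings. The DDX5 row was 1.77 times DDX17 in the control and 2.06 and 2.16 times after romidepsin.

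**Figure D3:**
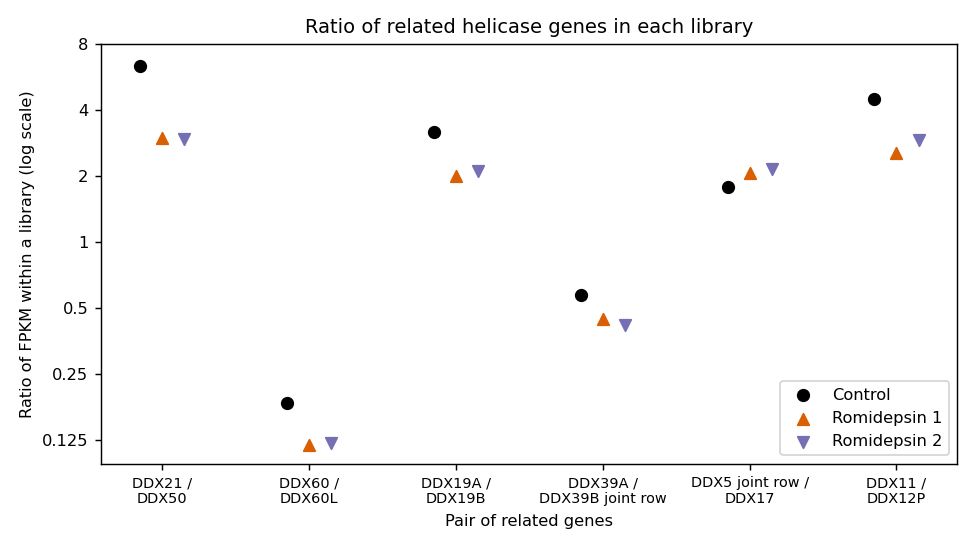
Ratio of FPKM (vertical axis, log scale) of 6 pairs of related helicase genes within each library, for the control (circles) and the romidepsin libraries (triangles). The ratio of DDX21 to DDX50 is 6.38 in the control and near 3 in both treated libraries, and in each of the 6 pairs the treated points lie on the same side of the control. The pairs were picked by hand, and the share of other gene pairs with this trait was not counted.

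Of 6 helicases of translation and mRNA fate, 4 fell and none rose. DDX3X, a translation factor for structured leaders, was at 98.2, 96.8 and 99.1 FPKM in the control and the romidepsin libraries, and the control lay between the treated values. Its log2 difference was -0.004 (SE 0.04, limma adjusted p = 0.932), though same-sum scaling and quantile normalization each called it higher, by 0.24 and 0.23. DHX29, which helps the ribosome scan, was at 9.45, 9.30 and 9.27 FPKM (adjusted p = 0.733) and was called higher with same-sum scaling (0.19). DDX6, which represses and decaps mRNA, fell from 31.9 FPKM to 24.9 and 24.7 FPKM, and 5 of its 9 partners fell with CNOT1, the scaffold of the deadenylase, having the largest fall (-0.37) and LSM14B rising (0.16). With same-sum scaling 1 partner was lower and 3 were higher, against 26.2% and 48.7% of all genes. As deposited, 41.8% of all genes fell and 34.7% rose. DHX36, which opens G-quadruplexes, fell 1.23-fold, a call lost with same-sum scaling (-0.06), and DHX34, of nonsense-mediated decay, fell from 7.66 FPKM to 4.95 and 4.56 FPKM.

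The translation initiation helicases named EIF4A are DEAD box proteins that the name rule leaves out. EIF4A1, read in a joint row, fell from 534 FPKM to 345 and 349 FPKM, EIF4A2 from 348 FPKM to 264 and 258 FPKM, and EIF4A3, of the exon junction complex, from 97.5 FPKM to 74.8 and 74.1 FPKM. All of them remained lower under both other scalings. In the wider list of 15 tested RNA helicases outside the rule, 11 fell and 2 rose, with a median of -0.31. Of all genes, 41.8% fell and 34.7% rose. With same-sum scaling 6 of the 15 were lower and 3 higher, against 26.2% and 48.7% of all genes. Of 10 partners of EIF4A and of the exon junction complex, 6 fell and 1 rose: EIF4B, a cofactor of EIF4A, had the largest fall (from 153 FPKM to 92.9 and 93.2 FPKM), and RBM8A rose from 9.20 FPKM to 11.5 and 11.7 FPKM.

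Of the 4 sensors of viral RNA, 2 rose, 1 fell and 1 was not called. Their sum was 21.0 FPKM in the control against 24.9 and 23.8 FPKM, most of it DDX60L (14.1, 17.5 and 16.2 FPKM). DDX58, which encodes RIG-I, was at 2.55 FPKM without romidepsin and 3.04 and 3.14 FPKM with it (log2 difference 0.20, limma adjusted p = 0.0743), with values of 0.38 under same-sum scaling, a call, and -0.05 under quantile normalization. DHX58, which encodes the regulator LGP2, rose from 1.79 FPKM to 2.31 and 2.44 FPKM (0.27 ± 0.10, adjusted p = 0.0389), but was 0.03 lower under quantile normalization. Both treated libraries were above the control for these genes, on few fragments: with the longest coding transcript as length, DHX58 corresponds to about 79 fragments in the control and 126 and 138 after romidepsin, and DDX58 to about 189, 276 and 295. IFIH1, the third receptor of this type, which encodes MDA5, was at 3.57, 3.92 and 3.84 FPKM and was not called (adjusted p = 0.31). In their signalling pathway 3 of 10 genes rose and 4 fell, with a median of 0.04, against 5 higher and 3 lower with same-sum scaling. These shares were near those of all genes, of which 34.7% rose and 41.8% fell. With same-sum scaling 48.7% of all genes were higher and 26.2% lower. TBK1, the kinase of the pathway, had the largest rise (from 17.4 FPKM to 22.8 and 23.4 FPKM) and TRAF3 the largest fall (from 8.98 FPKM to 5.32 and 5.22 FPKM).

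DDX60 and DDX60L, interferon-inducible neighbours on chromosome 4, moved apart. DDX60 went from 2.60 FPKM to 2.08 and 1.97 FPKM (limma adjusted p = 0.0499, at the threshold, and lost with same-sum scaling, where the difference was -0.08), and DDX60L from 14.1 FPKM to 17.5 and 16.2 FPKM (adjusted p = 0.0076). The ratio of DDX60 to DDX60L was 0.185 in the control and 0.119 and 0.121 after romidepsin. The promoter stretches printed above for this pair carry the same repeat.

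Of the remaining members, DHX40, a DEAH protein with few assigned tasks, had the largest rise of the family. It was at 13.1 FPKM without romidepsin and 20.6 and 21.5 FPKM with it, both above the control (1.61-fold, log2 difference 0.64 ± 0.05, limma adjusted p = 2.24e-05). It was higher under each scaling, by 0.87 with the same sum and 0.69 under quantile normalization. DDX59 fell from 10.4 FPKM to 5.88 and 5.95 FPKM, DHX32 fell 1.45-fold, and DHX57 was at 3.30, 3.31 and 3.59 FPKM and was not called (adjusted p = 0.623). DDX26B, an older symbol for a protein related to an Integrator subunit and no helicase by function, was at 6.94, 6.99 and 6.88 FPKM and was called higher only with same-sum scaling (0.21). DDX11, a DNA helicase of sister chromatid cohesion, fell from 16.1 FPKM to 10.7 and 11.6 FPKM, while its pseudogene copy DDX12P was at 3.57, 4.18 and 4.01 FPKM, called higher only with same-sum scaling (0.35). Their ratio went from 4.51 to 2.56 and 2.90, but near-identical copies can share reads and both values are uncertain.

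Helicases of germ cells were at or near 0. DDX4, the germline marker known as VASA, and DDX53 were listed at 0 in every library, DDX43 reached at most 0.0148 FPKM, and DDX25 at most 0.0278 FPKM. An exact 0 need not mean absence: the own row of DDX39B was at 0 while its joint row was at 233, 185 and 187 FPKM. No joint row named DDX4 or DDX53, and their 0 is still not read as absence.

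**Figure D4:**
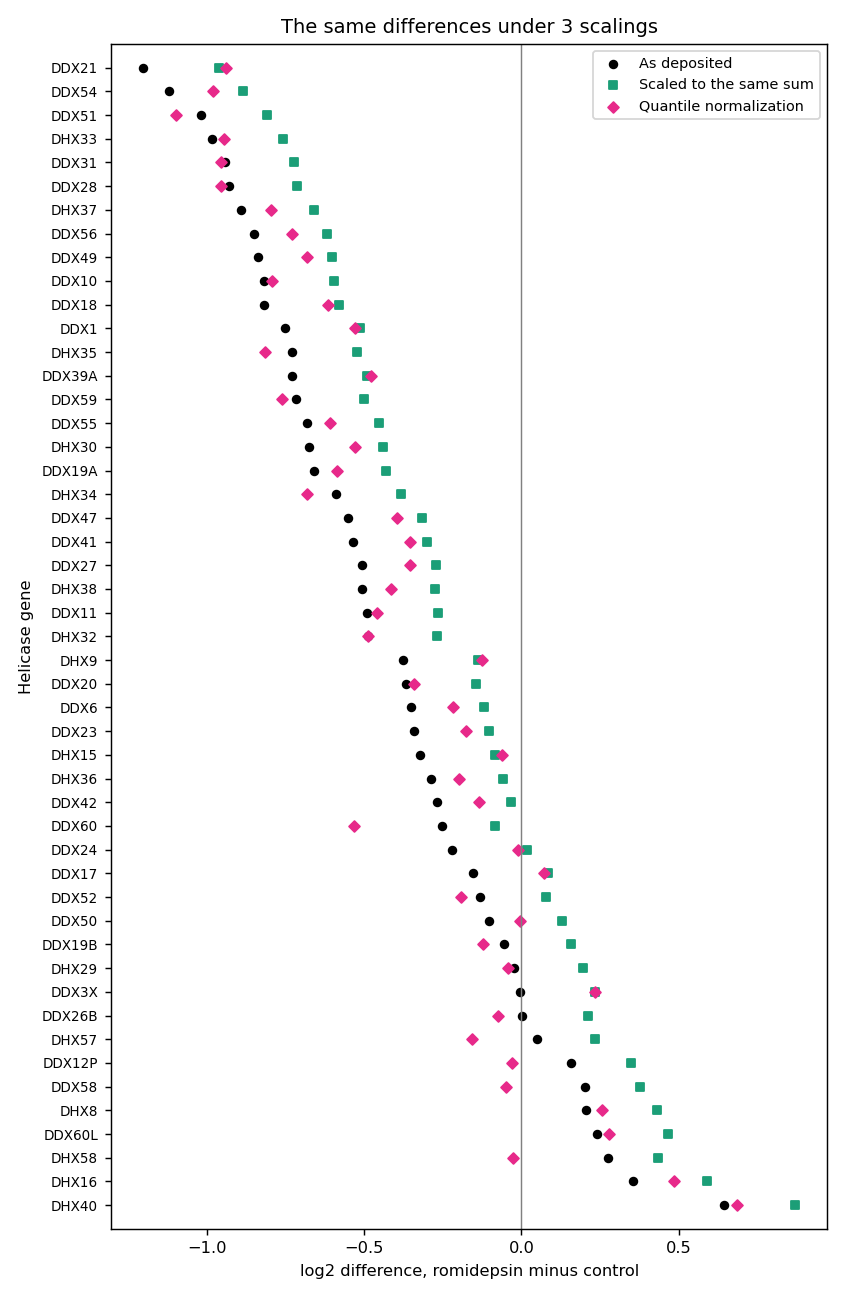
Log2 difference of romidepsin minus control (horizontal axis) for 49 tested members as deposited (circles), after same-sum scaling (squares) and under quantile normalization (diamonds). Same-sum scaling moves every plotted gene to the right; DDX21 is lowest as deposited (-1.20) and with same-sum scaling (-0.96) but sixth under quantile normalization (-0.94), and DHX40 stays highest, at 0.64, 0.87 and 0.69.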

How the data were processed

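RNA-seq of 1 control and 2 romidepsin libraries of OCI-AML2 R50 cells was read from total RNA, per the labels. The authors deposited FPKM per gene, 1 column per library, per the file headers. Per the submitters' processing notes the tools were TopHat, Cufflinks and Cuffdiff and the build hg19; no source used here gives their versions, settings or annotation. Rows without a name (1770, holding 21.1% to 22.3% of summed FPKM) or named by a bare number (27) were left out, and rows of a symbol were summed. Differences of log2(FPKM + 1) were tested with limma 3.58.1 in R 4.3.3 (mean-variance trend, 1 residual and 6.06 prior degrees of freedom, Benjamini-Hochberg over 11708 genes with at least 1 FPKM in a library). The fit was also run on simulated data that gave every library the same spread, taken from the romidepsin pair. That run cannot check whether the control varies as the pair does. The members, role lists and named genes were chosen with earlier results of these data known. Genes given in full were the 10 largest falls and the called rises, the 5 most abundant, those past 2-fold and the innate sensors; partner lists give their largest rise and fall. The largest rise among helicases outside the name rule is not reported here. The EIF4A genes, IFIH1 and the marker genes were named outside that rule, after their values were seen. Depth was estimated from FPKM steps of single-transcript GENCODE genes. Alternatives were another pseudocount, no or a stricter filter, same-sum and quantile scaling, single-row symbols and leaving out a romidepsin library. Python 3.11.15 and matplotlib 3.10.9 were used otherwise.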

Additional observations from a re-analysis of the deposited data

How the results depend on the processing

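The 14 falls among ribosome biogenesis helicases kept their direction under each alternative run except that of DDX24 with same-sum scaling, whereas the counts depend on the settings. Without a filter on low values, which widens the fit to 25247 genes, 19 members were called lower and 1 higher (36 and 5 in the main analysis), and 8.27% of all genes were called lower; the fold changes themselves did not move. Scaling to the same sum called 11 members higher, where 48.7% of all genes were. Members at least 2-fold lower in both libraries numbered 5 with a pseudocount of 0.1, 0 when scaled to the same sum and 1 after quantile normalization, against 2; they numbered 2 to 3 with a romidepsin library left out (DDX51 joined without romidepsin replicate 2). The median difference of tested members, -0.49, was -0.52 with a pseudocount of 0.1, -0.37 with no filter, -0.51 with a mean of at least 5 FPKM, -0.27 when scaled to the same sum, -0.37 after quantile normalization and -0.48 to -0.46 with a romidepsin library left out. Among members called with or without the scaling, differences that changed sign with scaling to the same sum were those of DDX17 (0.083), DDX24 (0.017), DDX3X (0.24), DDX50 (0.13) and DHX29 (0.19); with quantile normalization they were those of DDX17 (0.072), DDX3X (0.23) and DHX58 (-0.027). Members called in neither also changed sign: DDX19B and DDX52 with the former, DDX12P, DDX26B, DDX58 and DHX57 with the latter, and DDX3X, DDX19B and DDX26B with a romidepsin library left out. Of the 49 members with given levels, 20 lost their call without a filter and, beside those that changed sign, 6 when scaled to the same sum and 2 after quantile normalization; none did with a pseudocount of 0.1 or, among the members it tests, the stricter filter; the cause was not tested. Of the 36 falls, 17 were called under every alternative that tested the gene, as was 1 of the 5 rises (DHX16). Leaving out a romidepsin library leaves no residual degrees of freedom, so it gives values and no test. No paired analysis was possible because there is 1 control library, so the groups share fewer than 2 replicate numbers. Of the tested members with given levels, DHX58 had the fewest estimated fragments in the control, about 79, followed by DDX58 and DDX60.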
